A study of Mus musculus with 6 samples.

Results

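Bone morphogenetic protein (BMP) signalling and the Id genes were followed in the mouse dedifferentiated liposarcoma line mLPS1, a tumour of the fat lineage, through 10 genes picked by name: the ligand genes Bmp2 and Bmp4, the receptor genes Bmpr1a and Bmpr2, the signal transducers Smad1, Smad5 and Smad6, and the target genes Id1, Id2 and Id3. All 10 were found among the 14472 rows of the authors' deposited table, which holds the comparison NICD knockout over wild type. The series holds 3 libraries of the line labelled mLPS1 wild type and 3 of the line labelled mLPS1 NICD Knockout, with no treatment, time or further allele in the labels. NICD is the intracellular domain of a Notch receptor, which acts in the nucleus as a transcriptional activator. The labels name 1 line per genotype and do not say how many clones it came from. Each title ends in its own p number, 35, 37 or 40 for a wild type library and 34, 36 or 39 for a knockout library, whose meaning no label explains. The labels do not say whether libraries came from separate cultures, so p-values measure only how these libraries vary, and that variation may be technical. Over-expression of Notch is named in the title of the series and a knockout in its labels, and the sources used here do not say if an extra Notch fragment is present in the wild type cells.

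BMPs are secreted dimers that bring together type I and type II receptor kinases. The activated type I receptor phosphorylates Smad1, Smad5 and Smad9, which join Smad4 and enter the nucleus, and Smad6 and Smad7 hold this step back. Id genes are among the most direct targets: their proteins pair with basic helix-loop-helix factors and keep them off DNA. In fat tissue, Bmp4 and Bmp2 are known for committing mesenchymal precursors to the adipocyte lineage.

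The promoters of Bmp4, Id2 and Id3 are shown because Bmp4 had the largest fold change of the 10 genes, while Id2 and Id3 are sister genes of which Id2 passed the test and Id3 did not. Each run is the 250 bases before the start site, 5′ to 3′ in the direction of the gene, from the RefSeq promoter table of build GRCm38.p6. The authors' build is mm39, so these positions serve only to identify the sequences. Bmp4 lies at chr14:46390670-46390919 on the minus strand, Id2 at chr12:25096093-25096342 on the minus strand and Id3 at chr4:136143572-136143821 on the plus strand. Capitals mark every match, on either strand, to GGCGCC and GGAGCC, GC-rich motifs bound by BMP-activated Smads, to GTCTAGAC, the palindromic Smad motif, to GTGGGAA, a motif of the Notch partner Rbpj, and to CANNTG, the E-box of basic helix-loop-helix factors.
Bmp4: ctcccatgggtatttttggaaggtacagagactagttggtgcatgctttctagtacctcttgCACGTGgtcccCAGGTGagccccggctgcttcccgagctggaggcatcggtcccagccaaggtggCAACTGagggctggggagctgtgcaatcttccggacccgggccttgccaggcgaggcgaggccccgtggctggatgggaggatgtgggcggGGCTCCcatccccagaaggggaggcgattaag
Id2: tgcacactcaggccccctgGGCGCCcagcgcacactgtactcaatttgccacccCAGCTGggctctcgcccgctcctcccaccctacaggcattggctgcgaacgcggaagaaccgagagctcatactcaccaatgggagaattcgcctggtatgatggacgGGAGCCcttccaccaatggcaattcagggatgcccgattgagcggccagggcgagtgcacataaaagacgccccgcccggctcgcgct
Id3: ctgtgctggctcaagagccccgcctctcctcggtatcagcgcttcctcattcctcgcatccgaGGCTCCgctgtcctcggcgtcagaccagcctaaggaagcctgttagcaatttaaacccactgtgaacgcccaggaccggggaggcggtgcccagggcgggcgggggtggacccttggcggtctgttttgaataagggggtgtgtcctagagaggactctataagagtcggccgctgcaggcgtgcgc
The Id2 window held GGCGCC at 231 to 226 bases before the start site and GGAGCC at 88 to 83 bases, with 1 E-box between them. Id3 held a single match, GGAGCC on the opposite strand at 187 to 182 bases before the start. Bmp4 held GGAGCC on the opposite strand at 32 to 27 bases before the start and 3 E-boxes. GTCTAGAC and GTGGGAA had no match in these 3 windows. Among 13814 windows of tested genes, 15.7% held GGCGCC, 33.9% held GGAGCC, 0.195% held GTCTAGAC, 5.50% held GTGGGAA and 58.0% held CANNTG, so single matches of GGAGCC or an E-box were common. Promoters were matched by symbol for 8 of the 10 genes, and those of Bmp2 and Id1 were not used here.

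Of the 10 genes, 4 were higher in the knockout (Bmp2, Bmp4, Id1 and Id2), 3 were lower (Bmpr2, Smad1 and Smad5) and 3 did not pass (Bmpr1a, Smad6 and Id3), at an adjusted p under 0.05 per the authors' deposited table, which comes from DESeq2's Wald test. The background was high: 50.5% of the 14470 tested genes passed in either direction, 25.4% higher and 25.1% lower. All 10 genes had a mean normalised count of at least 100, and among the 10479 genes at or above that mean 54.6% passed. The 7 calls among 10 genes are therefore not read as a property of this group. The median log2 fold change of the 10 genes was 0.26, beside 0.02 over all tested genes and -0.05 over those with a mean of at least 100. Both ligand genes rose, and the type II receptor gene and both receptor-activated Smad genes fell. Single-library values were not used here, so each gene is given by its mean normalised count, a level for each group fitted from the mean and fold change, and a 95% Wald interval of the log2 fold change.

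**Figure D1:**
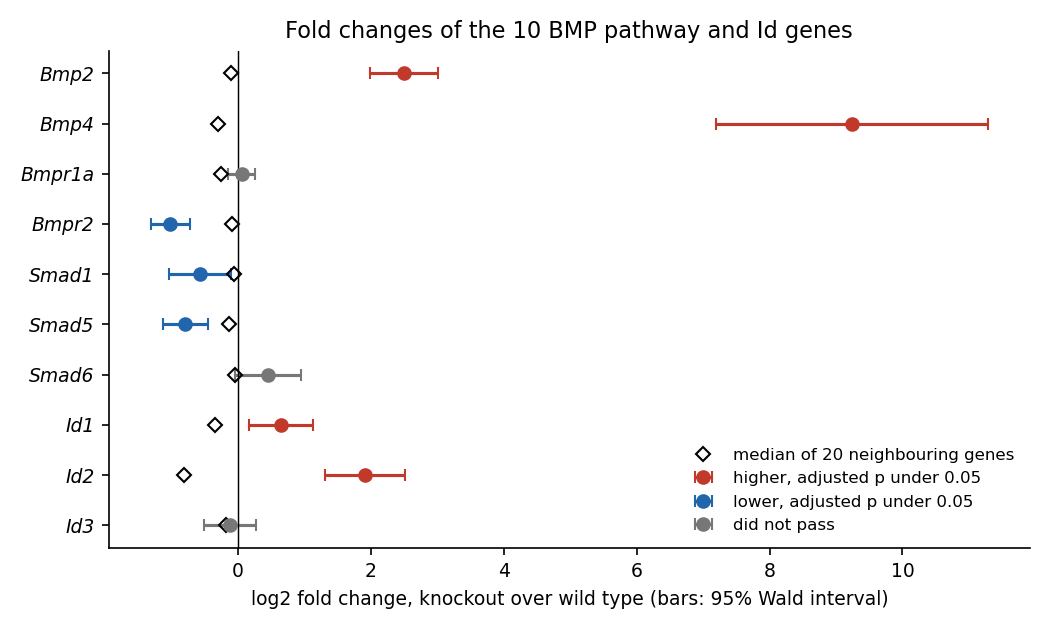
Log2 fold change (x axis, knockout over wild type) of the 10 genes (y axis, by role) with 95% Wald intervals as bars; open diamonds mark the median of 20 expressed neighbouring genes on the chromosome. Bmp4 lies far to the right at 9.24 with the widest interval, and Bmp2 and Id2 follow at 2.50 and 1.91. The diamonds of all 10 genes lie left of 0.

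Bmp4 (ENSMUSG00000021835, chromosome 14) had a mean normalised count of 178.2 per the authors' deposited table. Its fitted level was below the floor of 1 normalised count per library (3 summed over a group) in wild type and 355.8 in the knockout. Against that floor the fitted knockout level was 356-fold higher, a value that leaves out the error of the fit and is no lower bound. The Wald interval of the deposited fold change ran from 147-fold to 2496-fold higher. The deposited log2 fold change was 9.24 (SE 1.04, adjusted p = 1.23e-17) per the authors' deposited table, which ranks the gene 6 from the top among the 14470 tested genes, but with so few wild type counts this fitted value is no measure of size. Its SE was wide for its expression: the 500 genes nearest in mean had a median SE of 0.23. Bmp4 was thus under the floor in 1 line and well counted in the other.

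Bmp2 (ENSMUSG00000027358, chromosome 2), the closest relative of Bmp4, was already present in wild type. Its fitted level was 51.6 in wild type and 292.7 in the knockout, 5.68-fold higher (interval 3.98 to 8.09). Its log2 fold change was 2.50 per the authors' deposited table (SE 0.26, adjusted p = 1.34e-20). The neighbours of Bmp2 and Bmp4 had median log2 fold changes of -0.11 and -0.29, on the other side of 0 from both ligand genes. The neighbour medians of the other members also lay below 0, so this is not particular to the ligand genes.

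Of the 13 other BMP and GDF ligand genes on the list, only Bmp5, Bmp6 and Bmp8a were tested and none passed in DESeq2's Wald test, beside a background of 50.5%. At an unadjusted p under 0.05, Bmp5 and Bmp8a would have counted (p = 0.0428 and 0.0409 per the authors' deposited table). Bmp8a had a log2 fold change of -0.81 (adjusted p = 0.0759), Bmp6 of 0.33 (adjusted p = 0.726) and Bmp5 of 3.78 (adjusted p = 0.0789, mean normalised count 2.83) per the authors' deposited table. Bmp8a has a close copy, Bmp8b, so its reads are uncertain. Per kilobase of transcript, with levels below the floor set to it, the 5 tested ligand genes summed to 65.5 normalised counts in wild type and 309.5 in the knockout. Bmp8a made up 66.5% of that sum in wild type and 8.05% in the knockout, while Bmp4 made up 0.826% and 62.2%. Bmp2 held a share of 22.1% and 26.6%. The ligand transcripts of the knockout line were thus mostly Bmp4 and Bmp2, and these shares carry no error because the levels are fitted from group means.

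**Figure D2:**
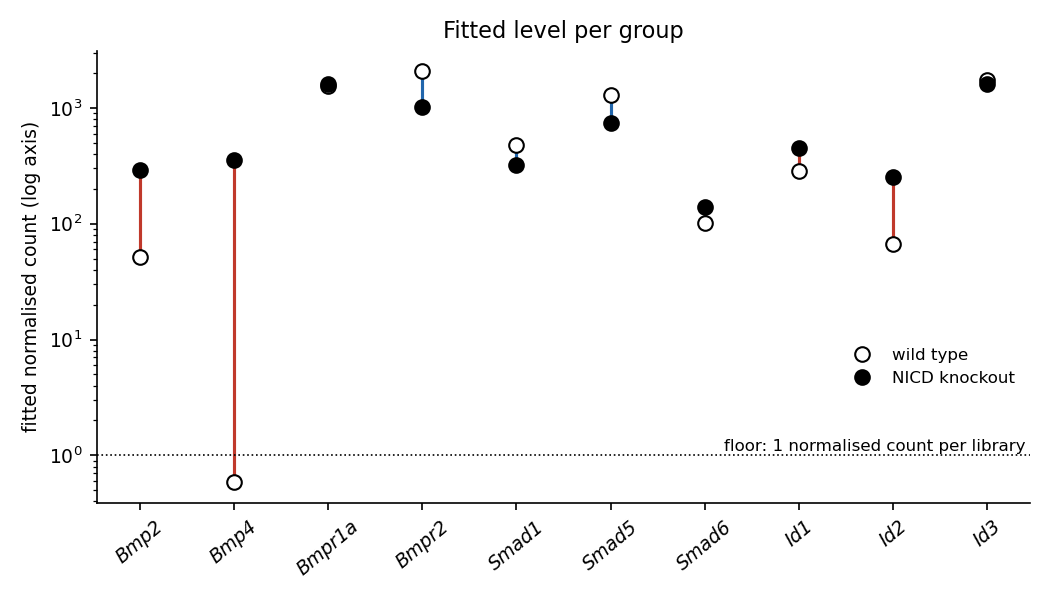
Fitted normalised count (y axis, log scale) of the 10 genes in wild type (open circles) and the NICD knockout (filled circles), with red lines for genes that were higher, blue for genes that were lower and none visible where the circles overlap. Counts are not divided by length, so only circles of the same gene compare; Bmp4 in wild type lies below the dotted floor of 1.

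Bmpr2 (ENSMUSG00000067336, chromosome 1), the type II receptor dedicated to BMPs, fell 2.02-fold (interval 1.65 to 2.48). Its fitted level was 2069 in wild type and 1024 in the knockout. The log2 fold change was -1.02 per the authors' deposited table (SE 0.15, adjusted p = 1.20e-10), and its neighbours had a median of -0.09. Bmpr1a (ENSMUSG00000021796, chromosome 14), a type I receptor for Bmp2 and Bmp4, had fitted levels of 1542 and 1605. Its log2 fold change was 0.06 per the authors' deposited table (SE 0.10, adjusted p = 0.674), and the interval of -0.15 to 0.26 reaches at most 1.20-fold higher. The neighbours of Bmpr1a had a median of -0.25, and with that median subtracted Bmpr1a counted as higher, at 0.31 (adjusted p = 0.00796, range 0.00796 to 1 over 7 alternatives).

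Among the 9 other receptors and co-receptors tested of 10 listed, 2 were higher and 3 lower per the authors' deposited table. These calls made up 55.6%, beside 50.5% of all tested genes. The type I receptor gene Bmpr1b was listed but not tested. Acvr1 and Acvrl1, other type I receptors of the BMP branch, fell 2.68-fold and 2.81-fold. Their log2 fold changes were -1.42 (SE 0.16, adjusted p = 7.38e-17) and -1.49 (SE 0.24, adjusted p = 4.57e-09) per the authors' deposited table. Hjv, a BMP co-receptor best known from iron control, fell 7.52-fold from a fitted level of 140.0 to 18.6. Neo1, which binds Hjv and other RGM proteins, rose 1.79-fold, and the co-receptor gene Eng rose 1.24-fold per the authors' deposited table. Acvr2a, Acvr2b, Rgma and Rgmb, named outside the rule, had log2 fold changes of -0.18, -0.99, -0.45 and 0.38 per the authors' deposited table and did not pass. Per kilobase, Bmpr1a made up 57.3% of the type I receptor transcripts (Bmpr1a, Acvr1 and Acvrl1) in wild type and 79.1% in the knockout, with a summed level of 1999 and 1507. Type II receptor transcripts (Bmpr2, Acvr2a and Acvr2b) summed to 240.1 per kilobase in wild type and 140.9 in the knockout. By this measure Bmpr1a was the main tested type I transcript in both lines. In wild type that order rests on the median transcript lengths used, 1.35 kilobases for Bmpr1a and 2.89 for Acvr1. Before division by length, Acvr1 was fitted at 1926 in wild type and Bmpr1a at 1542. Eng and Acvrl1 are also endothelial genes: of 6 endothelial markers 4 were tested, with summed fitted levels of 63.6 in wild type and 50.1 in the knockout. Of these Kdr fell from a fitted level of 31.5 to 8.41 (adjusted p = 0.00739 in DESeq2's Wald test). Pecam1, Cdh5 and Tek did not pass, and Cldn5 and Erg were not tested. Eng was fitted at 9045 and 11257, and it did not pass at an adjusted p under 0.01 or with its neighbours subtracted. Any endothelial share in the Eng and Acvrl1 values was not tested.

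Of the receptor-activated Smad genes, Smad1 and Smad5 were lower and Smad9 was higher. Smad5 (ENSMUSG00000021540, chromosome 13) had fitted levels of 1288 in wild type and 746.2 in the knockout, 1.73-fold lower (interval 1.37 to 2.18). Its log2 fold change was -0.79 per the authors' deposited table (SE 0.17, adjusted p = 1.75e-05). Smad1 (ENSMUSG00000031681, chromosome 8) had fitted levels of 478.9 and 323.4. Its log2 fold change of -0.57 per the authors' deposited table (SE 0.24, interval -1.03 to -0.10, adjusted p = 0.0356) lay close to the threshold. The call for Smad1 was lost after centring on expressed genes (adjusted p = 0.0577, range 0.0328 to 1 over 7 alternatives) and after subtracting its neighbours (adjusted p = 0.0632). Smad9, the third Smad of this branch and no member of the group, rose 4.85-fold from a fitted level of 29.7 to 144.1 per the authors' deposited table (adjusted p = 1.29e-07, log2 fold change 2.28, SE 0.41). Smad9 nevertheless stayed the minor form: per kilobase it made up 1.30% of the 3 receptor-activated Smads in wild type and 9.45% in the knockout, and their sum was 426.8 and 284.2.

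Smad6 (ENSMUSG00000036867, chromosome 9) is an inhibitory Smad that BMP signalling itself induces. It had fitted levels of 100.8 in wild type and 138.6 in the knockout. The log2 fold change was 0.46 per the authors' deposited table (SE 0.25, interval -0.04 to 0.96, adjusted p = 0.120), so a change of up to 1.94-fold lies within the interval. Smad7, the other inhibitory Smad, and the shared partner Smad4, both named outside the rule, had log2 fold changes of 0.34 and 0.31 per the authors' deposited table (adjusted p = 0.173 and 0.0976) and did not pass.

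Of the 12 other Smads and Smad regulators tested, 5 were higher and 2 lower per the authors' deposited table. These calls made up 58.3%, beside 50.5% of all tested genes, and the median log2 fold change was 0.33. The higher ones besides Smad9 were Tob1, a growth-restraining protein that dampens BMP Smads, the Smad phosphatase gene Ppm1a, the co-repressor gene Skil and the deubiquitinase gene Usp15. Tob1 rose 3.56-fold per the authors' deposited table (adjusted p = 7.39e-49, log2 fold change 1.83, SE 0.12), Ppm1a rose 1.90-fold and Skil rose 1.80-fold. The 2 lower ones were Smurf1 and Smurf2, ubiquitin ligases that mark Smads and receptors for breakdown, at log2 fold changes of -0.53 and -0.64 per the authors' deposited table.

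**Figure D3:**
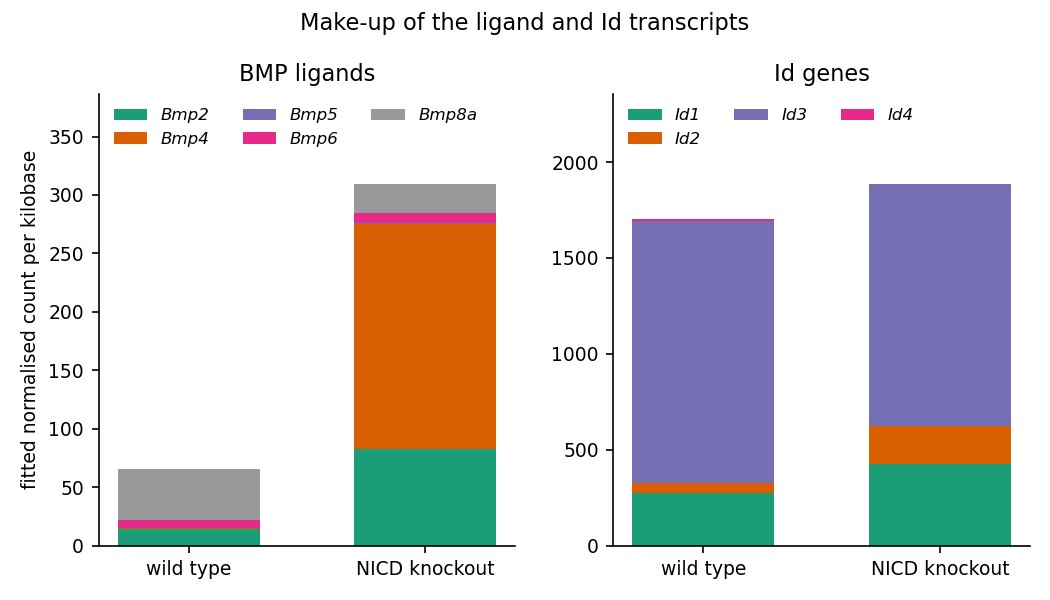
Fitted normalised count per kilobase of transcript (y axis, stacked by gene) in wild type and the NICD knockout, for the 5 tested BMP ligand genes on the left and the 4 Id genes on the right, on separate scales and without error bars. Bmp4 (orange) fills most of the knockout ligand bar and is hardly visible in wild type, and Id3 (violet) is the largest Id share in both lines.

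The Id genes differed among themselves. Id2 (ENSMUSG00000020644, chromosome 12) had fitted levels of 67.3 in wild type and 253.4 in the knockout, 3.76-fold higher (interval 2.48 to 5.71). Its SE of 0.31 per the authors' deposited table stood beside a median SE of 0.24 for the 500 genes nearest in mean. Id1 (ENSMUSG00000042745, chromosome 2) had fitted levels of 284.9 and 446.9, 1.57-fold higher (interval 1.12 to 2.19, adjusted p = 0.0194 per the authors' deposited table). Both rose against their surroundings, and with the neighbours' median subtracted the log2 fold changes of Id2 and Id1 were 2.72 and 0.99. Id1 did not pass at an adjusted p under 0.01.

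Id3 (ENSMUSG00000007872, chromosome 4) had fitted levels of 1747 in wild type and 1609 in the knockout. Its log2 fold change was -0.12 per the authors' deposited table (SE 0.20, interval -0.51 to 0.27, adjusted p = 0.651). Id4, the family's remaining gene and named outside the rule, fell 17.6-fold from a fitted level of 38.3 to 2.17 (log2 fold change -4.14, SE 0.74, adjusted p = 1.31e-07 per the authors' deposited table), and its neighbours had a median of -0.53. Id4 had few counts, with a mean of 20.2, so the size of its fall is poorly fixed (interval 6.46-fold to 48.2-fold). The 4 Id genes gave 2 rises, 1 fall and 1 gene that did not pass. Per kilobase of transcript, Id3 made up 80.3% of the Id transcripts in wild type and 66.8% in the knockout. The share of Id1 was 16.0% and 22.6%, and that of Id2 was 3.11% and 10.6%. The sum over the 4 genes was 1702 per kilobase in wild type and 1886 in the knockout.

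Id proteins act through their partners, the E proteins and other basic helix-loop-helix factors. Of the 9 partners listed 5 were tested, with 1 higher and 2 lower per the authors' deposited table. These calls made up 60%, beside 50.5% of all tested genes. The E protein gene Tcf4 rose 1.83-fold (log2 fold change 0.87, adjusted p = 3.10e-05 per the authors' deposited table), where its neighbours had a median of 0.63. With that median subtracted Tcf4 did not pass. The mesenchymal factor genes Twist1 and Twist2 fell 1.97-fold and 1.52-fold, with log2 fold changes of -0.97 and -0.61 per the authors' deposited table. The E protein genes Tcf3 and Tcf12, named outside the rule, had log2 fold changes of -0.11 and -0.25 per the authors' deposited table and did not pass.

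Extracellular antagonists and modulators moved in both directions, with 5 of 13 tested members higher and 3 lower per the authors' deposited table (22 listed). Of all tested genes 25.4% were higher and 25.1% lower, so movement in both directions is not particular to this list. The share called was 61.5%, beside 50.5% over all tested genes. Among the 9 not tested were the classical BMP traps Nog and Grem1. Bambi, a decoy receptor without a kinase domain that BMP signalling induces, fell 8.95-fold from a fitted level of 119.6 to 13.4 (log2 fold change -3.16, SE 0.38, adjusted p = 1.18e-15 per the authors' deposited table). Bmp1, which despite its name is a protease that trims procollagens and cleaves the BMP antagonist chordin, fell 2.89-fold, and the membrane protein gene Crim1 fell 1.60-fold per the authors' deposited table. Crim1 did not pass after its neighbours' median of -0.47 was subtracted. Htra1, a secreted protease that binds TGF-beta family proteins, rose 4.45-fold per the authors' deposited table (adjusted p = 8.06e-51, log2 fold change 2.15, SE 0.14). Fst, which encodes follistatin, an activin and BMP trap, rose 3.14-fold from a fitted level of 27.9 to 87.8, and the BMP modulator gene Twsg1 rose 1.55-fold. The remaining rises, named outside the rule, were Fstl1 and the Bmp1-like protease gene Tll1, with log2 fold changes of 0.57 and 3.17 per the authors' deposited table. Tll1 had few counts, with a mean of 10.5 and a fitted wild type level of 2.09. Its SE was 0.97, so its size is poorly fixed (interval 2.41-fold to 33.7-fold).

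**Figure D4:**
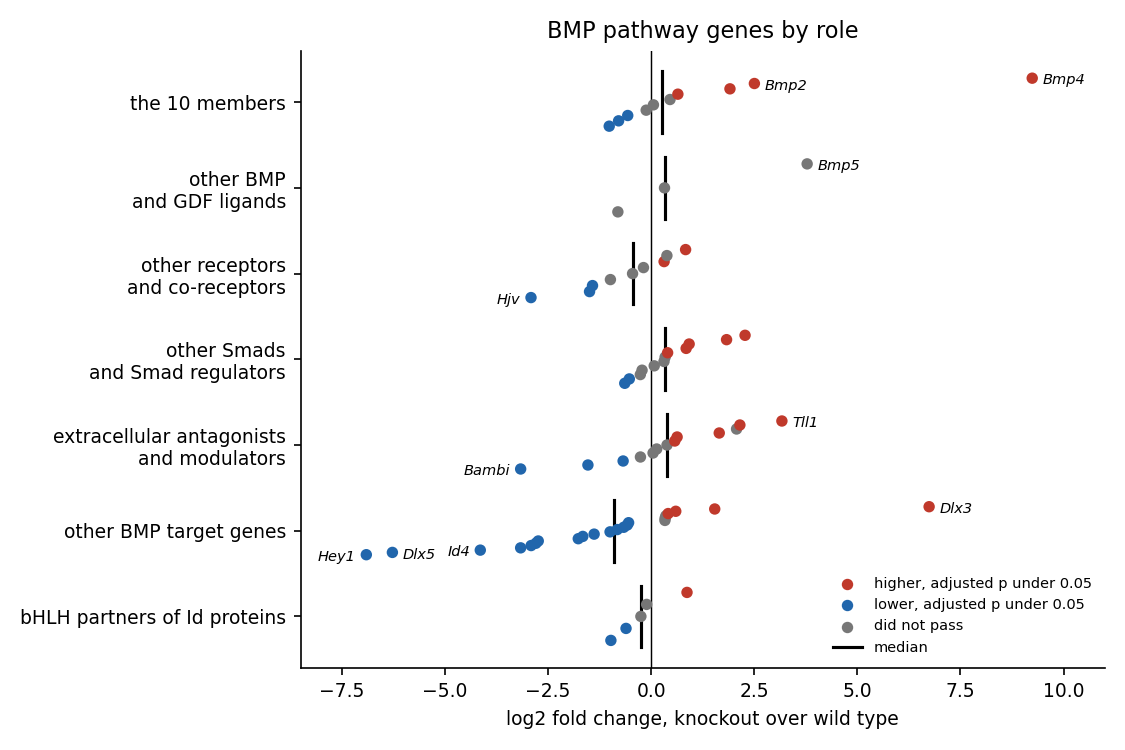
Log2 fold change (x axis, knockout over wild type) of each tested gene, by role (rows), with red and blue points for genes higher or lower at an adjusted p under 0.05, grey points for the others and a black bar at the row's median. The row of BMP target genes lies mostly left of 0 with a median of -0.91, while the other rows fall on both sides.

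Other genes described as BMP targets were mostly lower: of 22 tested of 25 listed, 15 fell and 4 rose per the authors' deposited table. Over all tested genes 25.1% were lower and 25.4% higher. The median log2 fold change of the list was -0.91, beside 0.02 over all tested genes. Bambi, among the 15, was also counted with the antagonists above, and Smad7, which did not pass, with the Smads. Part of this list is shared with Notch, since Hes1, Hey1 and Snai2 are also direct Notch targets, and the list was put together with their falls already known, so its count is no independent evidence of a direction. Hey1, Hes1 and Snai2 had log2 fold changes of -6.90, -2.79 and -2.74 per the authors' deposited table. Tbx3, a T-box repressor of limb and mammary development, and Zeb2, a zinc-finger repressor that binds Smads, fell 3.15-fold and 3.40-fold per the authors' deposited table. The homeobox genes Msx1 and Msx2 and the bone regulator gene Runx2, named outside the rule, fell with log2 fold changes of -0.55, -0.99 and -0.82 per the authors' deposited table. The bone-lineage homeobox gene Dlx5 fell from a fitted level of 74.4 to just under the floor, at 0.963 in the knockout (interval 19.5-fold to 306-fold lower). Its relative Dlx3 was fitted below that floor in wild type and at 20.9 in the knockout (interval 15.1-fold to 759-fold higher). Dlx3, Atoh8, Gata3 and Junb were the 4 that rose, the last 3 with log2 fold changes of 1.54, 0.60 and 0.41 per the authors' deposited table. Atoh8, a basic helix-loop-helix factor gene, thus rose with Id1 and Id2, while Bambi, Msx2 and Id4 fell.

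Over all 6 lists, 62 of 90 pathway genes were tested, 17 higher and 24 lower per the authors' deposited table. These calls made up 66.1%, beside 50.5% of all tested genes, and the median log2 fold change was -0.20. The labelled cell type has no marker of its own among the lists. Of 5 mesenchymal and fibroblast markers tested of 6, 3 fell (Vim, Col1a1 and Fn1) and 2 rose (Pdgfra and Col1a2), with log2 fold changes between -1.94 and 2.36 per the authors' deposited table and summed fitted levels of 262957 and 126180. Of 5 adipose progenitor markers 3 were tested: Ly6a rose, Cd34 and Pi16 did not pass, and Dlk1 and Dpp4 were not tested. The fitted levels summed to 218.7 in wild type and 10104 in the knockout, of which Ly6a alone was 211.3 and 10083. Of 4 epithelial markers Krt8 was tested and rose from a fitted level of 5.38 to 54.4, and Epcam, Cdh1 and Krt18 were not tested. Of 6 pericyte and smooth muscle markers 5 fell (Rgs5, Acta2, Myh11, Cspg4 and Notch3), beside 25.1% lower over all tested genes, and Cnn1 did not pass. The fitted levels of the 6 summed to 112771 in wild type and 8493 in the knockout, of which Acta2 alone was 81441 and 5224. Notch3, itself a Notch receptor gene, was fitted at 10088 and 317.1. Of 6 macrophage and leukocyte markers 3 were tested, summing to 203.6 and 2274. Cd68 alone rose and made up 179.0 and 2238 of these sums. Ptprc and Csf1r did not pass, and Adgre1, Tyrobp and Itgam were not tested. Of 6 adipocyte markers, Fabp4 rose from a fitted level of 4.37 to 307.4, Pparg did not pass, at 14.4 and 4.39, and Adipoq, Lep, Plin1 and Cidec were not tested. The part of these marker changes in the BMP and Id values was not tested, and in bulk RNA fewer cells of a type and less RNA per cell cannot be told apart. Any other difference between the 2 lines cannot be told apart from the genotype.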

How the data were processed

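Total RNA from 3 wild type and 3 NICD knockout libraries was sequenced, per the labels. Salmon, DESeq2 and the build mm39 are listed, without versions or settings, in the submitters' processing notes. For each gene the authors deposited 1 row, per the file headers: a mean of counts divided by size factors (a signal), a log2 fold change with its SE (log2 scale), the Wald statistic (a score), and p-values raw and Benjamini-Hochberg adjusted. The table's name gives the direction, knockout over wild type. Recomputing the last 3 from the first columns gave differences of at most 1.56e-13. Of 14472 rows, 2 have no p. The depth of single libraries is unknown, and the means sum to 21033526. Single-library values were not used here, so no edgeR test was run, although one was planned for counts, and calls are those of the authors' deposited table.

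Intervals are the log2 fold change plus or minus 1.96 SE. Levels per group were derived from mean and fold change, assuming that 3 libraries per group entered. Lengths are the median of protein-coding transcripts in GENCODE M21 (GRCm38), which also gave gene order for 99.9% of rows. Neighbour medians cover the nearest 10 protein-coding genes on each side whose mean was 100 or more. Named genes are the 10 members and, per list, up to 6 called genes with the smallest p. Others are marked in the text. Members and lists were chosen with earlier results of these data known. Alternatives covered the threshold, the adjustment, the tested null, centring, neighbours and filters on low means. The scripts were tested on simulated data. Python 3.11.15, numpy 2.4.6, pandas 2.3.3, scipy 1.17.1 and matplotlib 3.10.9 were used.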

Additional observations from a re-analysis of the deposited data

How the results depend on the processing

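Across 7 alternatives, Bmp4, Bmp2, Id2 and Bmpr2 stayed past the threshold with the direction of the report. Bonferroni adjustment left 1 of the 10 genes lower (Bmpr2), 7 pathway genes higher, and 1516 genes higher and 1659 lower overall. A test of whether the change exceeds 1.5-fold also left 1 of the 10 genes lower (Bmpr2), 6 pathway genes higher and 15 lower, and 1391 genes higher and 1176 lower overall. Both are stricter by construction, and both dropped Smad1, Smad5 and Id1. With neighbours subtracted, which ignores the error of the neighbours' median, Id3 changed sign from -0.12 to 0.064 and Smad4 from 0.31 to -0.13, none of them past the threshold. Among the pathway genes named, Eng, Crim1, Tcf4, Usp15 and Junb did not pass with neighbours subtracted. Smad1 did not pass after centring on expressed genes, at an adjusted p under 0.01 or with neighbours subtracted, and the cause was not tested. The p numbers in the titles differ between all 6 libraries. Each knockout number lies next to a wild type number: 34 and 35, 36 and 37, 39 and 40. Whether such libraries were handled together is not said in the labels. No paired analysis was run because no label pairs the libraries and single-library values were not used here. Leaving out single replicates, edgeR and a second normalisation were not run because they too need single-library values. Expression limits what can be said of Bmp4 in wild type and of Bmp5, Dlx3 and Dlx5, whose fitted level in 1 group lay below 1 normalised count per library.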
